A study of Mus musculus with 34 samples.

Results

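The genes described here are 10 regulators that brake the cell cycle or take part in the p53 and Rb response. They are the INK4 inhibitor genes Cdkn2a, Cdkn2b, Cdkn2c and Cdkn2d, the CIP/KIP inhibitor genes Cdkn1a, Cdkn1b and Cdkn1c, and Trp53, Mdm2 and Rb1. They were chosen by name, as the gene symbols printed in the array files. All 10 had a probe on the array and were tested among 19410 genes in all, and 14 of the 55681 probes belong to them. The main probe of each gene stood well above background on all 34 arrays.

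Mouse heart cells were profiled on single-colour Agilent arrays, with 2 arrays for each of 17 groups. All groups are of CD1 strain and carry aMHC-GFP, a fluorescent reporter that marks cells with an active alpha myosin heavy chain promoter. The iCM group holds cells 4 weeks after cardiac fibroblasts received a retrovirus carrying Mef2c, Gata4 and Tbx5 as 1 polycistronic transgene. The iPSC1-CM and iPSC2-CM groups hold cardiomyocytes differentiated from 2 lines of fibroblast-derived induced pluripotent stem cells, made with Oct4, Sox2, Klf4 and cMyc. The first line was taken on day 13 and the second on days 9 and 29. The neoCM and neoCF groups are cardiomyocytes and cardiac fibroblasts freshly isolated from pups at postnatal day 1.5. In the time course, cardiac fibroblasts were taken on day 0 (CF D0) and on days 3, 5, 7, 10 and 14 after infection with the 3 factors (MGT) or with LacZ as control. Per the labels, StemPro-34 medium with VEGF, bFGF and FGF10 was used for iCM and for cardiomyocytes from iPSCs. They name no medium for the other groups and no sorting step. Each iPSC group comes from 1 line, and the labels do not say that the 2 arrays of a group come from separate cultures, so that the p-values measure the spread between these arrays.

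INK4 proteins bind the kinases Cdk4 and Cdk6 and keep them from cyclin D, which leaves the Rb protein in the form that holds E2F factors and blocks entry into S phase. CIP/KIP proteins bind cyclin-kinase complexes more widely. Cdkn2a gives 2 unrelated proteins from 2 promoters: p16Ink4a, a kinase inhibitor, and p19Arf, which binds Mdm2 and so stabilises p53, whose best known target among the inhibitors is Cdkn1a. Cdkn2a and Cdkn2b are classical markers of fibroblasts that age in culture, and p53, p16Ink4a and p19Arf are known barriers to the reprogramming of fibroblasts to pluripotency.

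Cdkn2a and Cdkn2b are neighbours on chromosome 4, with 1 other annotated gene start between them in RefSeq, and their start regions are shown because these 2 genes gave the widest range of levels here. Each window runs from 250 bases before to 50 bases after a start, in GRCm38.p6, on the minus strand. The upstream start of Cdkn2a is the one known to give p19Arf and the downstream start the one known to give p16Ink4a. Capitals mark matches on either strand to the GC box GGGCGG, to an E2F site (TTTCCCGC, TTTCGCGC, TTTGCCGC or TTTGGCGC) or to the TATA box TATAAA, and no 2 matches overlap.
Cdkn2b, chr4:89310983-89311282: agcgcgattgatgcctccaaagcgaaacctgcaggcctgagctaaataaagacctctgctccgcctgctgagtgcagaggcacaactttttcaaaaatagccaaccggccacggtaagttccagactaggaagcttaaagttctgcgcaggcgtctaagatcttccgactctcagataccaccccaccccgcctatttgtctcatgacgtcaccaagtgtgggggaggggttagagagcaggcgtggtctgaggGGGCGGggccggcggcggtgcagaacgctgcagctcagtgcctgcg
Cdkn2a upstream start, chr4:89294570-89294869: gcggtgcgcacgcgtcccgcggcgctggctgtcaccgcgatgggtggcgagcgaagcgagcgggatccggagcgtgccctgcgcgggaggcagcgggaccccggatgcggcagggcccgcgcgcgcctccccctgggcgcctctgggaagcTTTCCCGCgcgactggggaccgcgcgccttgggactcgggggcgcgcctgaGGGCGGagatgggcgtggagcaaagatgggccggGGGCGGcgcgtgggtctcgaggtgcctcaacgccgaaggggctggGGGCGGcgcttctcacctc
Cdkn2a downstream start, chr4:89282143-89282442: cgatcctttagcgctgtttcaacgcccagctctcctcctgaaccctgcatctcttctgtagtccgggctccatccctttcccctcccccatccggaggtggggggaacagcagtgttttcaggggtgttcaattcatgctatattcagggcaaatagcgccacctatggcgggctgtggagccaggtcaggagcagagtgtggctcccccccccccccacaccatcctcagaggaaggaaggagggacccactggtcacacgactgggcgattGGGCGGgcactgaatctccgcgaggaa
The upstream Cdkn2a window holds 3 GC boxes and 1 E2F site, which begins at position -99 from the start, while the downstream window and the Cdkn2b window hold 1 GC box each. A GC box occurs in 35.7% and an E2F site in 2.3% of 32851 mouse windows of this length. The upstream Cdkn2a window has 45 CpG dinucleotides, the downstream one 12 and the Cdkn2b window 18, against a median of 7 over all windows. The table held 11 windows for 8 of the 10 genes and none for Cdkn1c and Rb1. Of the 11, 8 had a GC box, 1 an E2F site and 1, that of Trp53, a TATA box, which 13.6% of all windows have. A match is a run of letters and was not tested as a binding site.

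The Cdkn2a probe used here begins with the following bases and is annotated by the array to chr4:88920405-88920464 on the minus strand, in a build that the files do not name and whose positions fall in none of these genes in GRCm38.p6.
Cdkn2a probe, first 30 of 60 bases: ggcatgagaaactgagcgaaggcggccgcg
This probe and a second Cdkn2a probe both match the transcripts of p16Ink4a and of p19Arf, so the 2 products cannot be told apart and a Cdkn2a level is that of both. The 2 probes ran together over the 17 group means (Pearson r = 0.99), as did the 2 Cdkn2b probes (r = 0.99), the 2 Cdkn1a probes (r = 0.94) and the 2 Cdkn1b probes (r = 0.92).

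A level is the log2 intensity minus the 75th percentile of the array, so that a negative level lies below that percentile. Levels are compared between samples for 1 gene, never between genes. A gene was called higher or lower at a Benjamini-Hochberg adjusted p under 0.05, over all tested genes, and a difference of at least 2-fold, in a limma fit over all 34 arrays. The values are of bulk RNA, so that fewer cells with a transcript and less transcript per cell cannot be told apart.

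Between 28715 and 44881 spots of an array stood well above background. The lowest count was that of LacZ D14 replicate 2. That array also had the lowest 75th percentile (726.5) and the highest median coefficient of variation among replicate spots (8.69%). The 2 arrays of a group correlated over all genes at r = 0.984 or more in every group except iPSC2-CM D29, where r was 0.895. The cardiomyocyte markers, summed over 8 genes, reached 8.46 and 8.17 in iCM and 10.41 and 10.55 in neoCM, against 6.55 and 6.01 in neoCF. The summed level of 8 fibroblast markers was 9.31 and 9 in iCM, 9.76 and 9.73 in neoCM and 9.9 and 9.91 in neoCF. Of the 8 macrophage markers, 8 were above background in iCM (summed level 6.41 and 6.38) and 6 in neoCM (1.99 and 1.94), against 8 in neoCF (6.69 and 6.16). The cells named for 1 type thus also held transcripts that mark others, and the part of these cells in the results below was not tested.

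The 2 iPSC2-CM D29 arrays stood apart from each other. At least 2-fold differences between them covered 42.3% of all tested genes and 7 of the 10 genes described here. Replicate 1 had summed levels of 8.13 for fibroblast markers, 6.22 for endoderm markers and 5.49 for proliferation markers, and replicate 2 had 3.42, -5.28 and 1.16. Results on this group are therefore given for each array. Because all groups share 1 estimate of the spread, these 2 arrays also widened the error of other comparisons. Where leaving them out of the fit changed a call on any of the 10 genes, both values are given. For the gene lists, only the fit with these arrays is given.

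Cdkn2a and Cdkn2b rose between CF D0 and LacZ D14. The MGT arrays of Cdkn2b lay below the LacZ arrays on all 5 days. It was called lower on days 7, 10 and 14, and the calls on days 10 and 14 depended on the scaling. Cdkn2a and Cdkn2b stood far higher in iCM than in any freshly isolated cell, and higher in iCM than in iPSC-derived cardiomyocytes. Cdkn1a and Mdm2, 2 genes of the p53 response, were higher in CF D0 than in neoCF, as was Trp53 by a smaller step, while Rb1 was not called in any of the 16 comparisons. Cdkn1c ran the other way, high in the heart cells fresh from the pup and low in cultured fibroblasts. It was also high in iCM, iPSC1-CM and iPSC2-CM D9.

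The span between the highest and the lowest group mean put these genes at very different places. It was 9.38 on the log2 scale for Cdkn2a (665-fold, wider than 98.2% of all genes), 8.11 for Cdkn2b (275-fold) and 7.21 for Cdkn1c (148-fold), against a median of 2.53 over all genes. The spans were 3.96 for Cdkn2c, 3.35 for Cdkn1a, 2.68 for Cdkn1b, 2.59 for Mdm2, 2.28 for Cdkn2d and 1.73 for Trp53. Rb1, the pocket protein at the end of the pathway, spanned 0.91 on the log2 scale, narrower than all but 2.4% of genes. The plot of the 10 genes by cell group shows these ranges array by array.

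**Figure D1:**
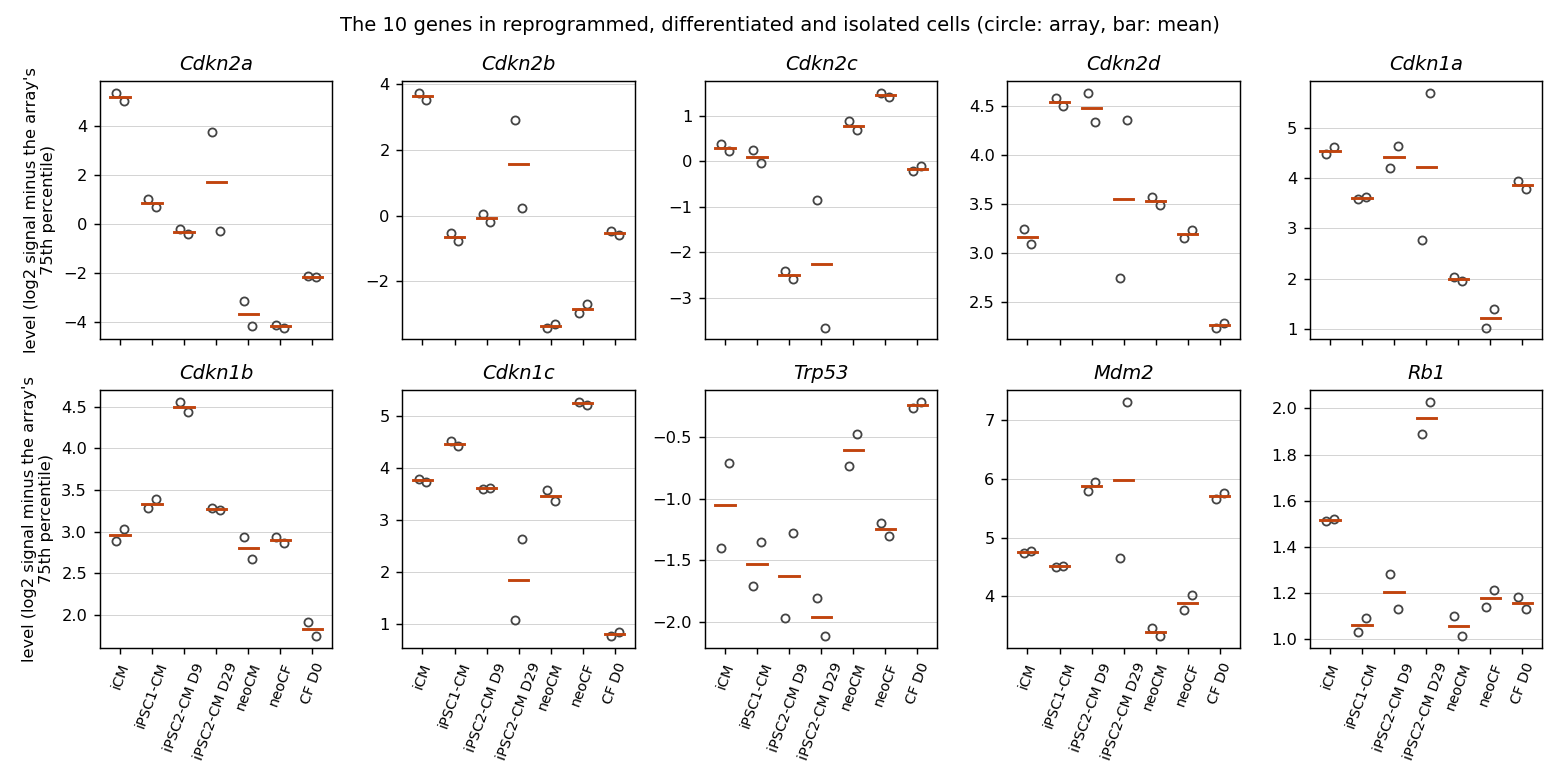
Level of each gene (y axis, log2 intensity minus the 75th percentile of the array) in the 2 arrays of 7 groups (x axis), with circles for arrays and bars for their mean; the y axes differ between genes. Cdkn2a and Cdkn2b are highest in iCM and lowest in neoCM and neoCF, Cdkn1c is highest in neoCF, and the 2 iPSC2-CM D29 arrays lie far apart for 7 genes.

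Cdkn2a was lowest in the freshly isolated cells and climbed with each later day of the time course in both arms. In MGT cells its level was -0.35 and -0.36 on day 3, 0.48 and 0.58 on day 5, 1.36 and 1.4 on day 7, 2.85 and 2.5 on day 10 and 3.85 and 3.93 on day 14. In LacZ cells it was 0.18 and -0.03 on day 3, 0.65 and 0.72 on day 5, 2.71 and 2.63 on day 7, 3.98 and 3.62 on day 10 and 5.21 and 5.02 on day 14, after -2.13 and -2.19 in CF D0. With the probe used here, every LacZ array lay above both MGT arrays of its day. Within an arm no array of a later day lay below one of an earlier day. In order of group means, iCM and LacZ D14 led, followed by MGT D14, LacZ D10, MGT D10 and LacZ D7, with neoCM and neoCF last, and 8 of the 16 neighbouring pairs in that order overlapped.

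Cdkn2b, which encodes p15Ink4b, also rose in LacZ cells over CF D0. In MGT cells its level was 1.91 and 1.88 on day 3, 2.02 and 1.89 on day 5, 2.3 and 2.45 on day 7, 3.07 and 3.04 on day 10 and 3.13 and 3.15 on day 14. In LacZ cells it was 2.72 and 2.71 on day 3, 2.68 and 2.69 on day 5, 4.05 and 4.24 on day 7, 4.75 and 4.38 on day 10 and 4.59 and 4.89 on day 14, after -0.47 and -0.6 in CF D0. On every day both MGT arrays lay below both LacZ arrays.

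**Figure D2:**
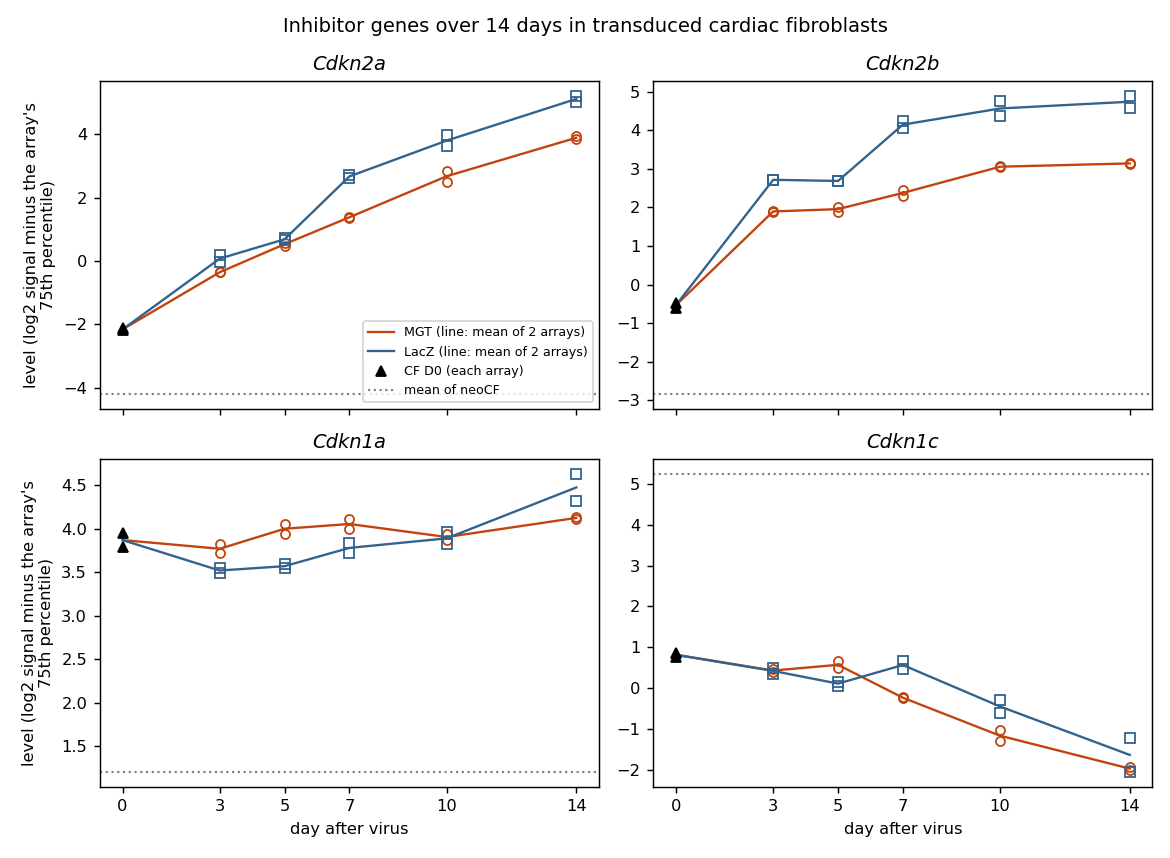
Level (y axis, log2 intensity minus the 75th percentile of the array) of 4 inhibitor genes by day after virus (x axis) in MGT cells (circles) and LacZ cells (squares), with lines through the means of 2 arrays, triangles for CF D0 and a dotted line at the neoCF mean. Cdkn2a and Cdkn2b climb in both arms with MGT below LacZ, Cdkn1a stays within about the same level, and Cdkn1c falls away from the neoCF mean.

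The difference between MGT and LacZ cells asks whether the 3 factors change these genes beyond the time in culture. On day 3 none of the 10 genes was called in the limma fit, higher (3.2% of all tested genes) or lower (1.87%), and 1, Cdkn1b, had an unadjusted p under 0.05, as had 1579 genes higher and 1926 lower among all 19410. On day 5 none was called either, against 4.96% of all genes higher and 3.3% lower, again with Cdkn1b alone at an unadjusted p under 0.05, beside 2260 genes higher and 2509 lower among all. On day 7 only Cdkn2b was called, as lower, against 5.31% of all genes higher and 3.49% lower. On day 10 it was again Cdkn2b alone, lower, against 5.28% higher and 3.39% lower, and on day 14 Cdkn2b alone, lower, against 5.85% higher and 7.33% lower. At an unadjusted p under 0.05 there were 1 higher and 3 lower on day 7, 3 lower on day 10 and 2 lower on day 14. Over all genes these counts were 2046 and 2678 on day 7, 2075 and 2869 on day 10 and 2407 and 4250 on day 14.

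Cdkn2b was 3.41-fold lower in MGT cells on day 7 (log2 difference -1.77, SE 0.46, limma adjusted p = 0.011), 2.84-fold lower on day 10 (-1.51, adjusted p = 0.03) and 3.03-fold lower on day 14 (-1.6, adjusted p = 0.015). Its second probe gave -1.76, -1.62 and -1.67. On days 3 and 5 the difference was -0.83 and -0.73 and was not called (adjusted p = 0.39 and 0.37). The calls on days 10 and 14 were lost with quantile normalization (adjusted p = 0.066 and 0.052) and in the authors' log2 values (0.062 and 0.058). On day 10 the call was also lost without any 1 of the 4 arrays, and on days 7 and 14 without either MGT array or without LacZ replicate 2, while over the alternatives run the log2 difference stayed between -1.87 and -1.3. MGT and LacZ cells shared a slide on days 3 to 10, while on day 14 they lay on different slides, so that slide and group cannot be told apart there.

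Markers of other cell types differed between the 2 arms on the same days. The summed fibroblast markers were 9.58 and 9.56 in MGT cells on day 7, against 10.12 and 10.15 in LacZ cells, and 9.04 and 8.99 in MGT cells on day 14, against 10.07 in the lower of the 2 LacZ arrays. Col1a1, a collagen gene of fibroblasts, differed by 0.08 on day 7 (adjusted p = 0.94). It was called lower in MGT cells on day 14 (log2 difference -1.98, adjusted p = 0.00013). Its day 14 levels were 6.29 and 6 in MGT cells, against 7.49 and 8.75 in LacZ cells. The summed cardiomyocyte markers were 8.54 and 8.43 in MGT cells on day 7, against 5.37 and 5.35 in LacZ cells, and 8.79 and 8.69 on day 14, against 3.71 and 3.88. Their part in the Cdkn2b and Cdkn2a differences was not tested.

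Cdkn2a was lower in MGT cells by a similar step, 2.44-fold on day 7 (log2 difference -1.29, SE 0.69), 2.18-fold on day 10 (-1.13) and 2.34-fold on day 14 (-1.22), but these differences did not pass the test (limma adjusted p = 0.27, 0.34 and 0.22). The SE of Cdkn2a carries the gap of 4.02 between the 2 iPSC2-CM D29 arrays. Without those arrays in the fit, Cdkn2a was called lower on day 7 (adjusted p = 0.00016), day 10 (0.00059) and day 14 (0.00022), with the same differences. With only the arrays compared in the fit it was called on day 7 (adjusted p = 0.0032) and day 14 (0.023). On days 3 and 5 the difference was -0.43 and -0.15, not called. The second Cdkn2a probe gave -0.86, 0.28, -1.34, -0.89 and -1.46 on days 3, 5, 7, 10 and 14. None of these passed the test, and the second probe thus opposed the first on day 5.

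Whether the effect of the 3 factors grew between day 3 and day 10 was tested as a difference of differences. None of the 10 genes was called, against 1.38% of all genes higher and 0.587% lower. None had an unadjusted p under 0.05, beside 1028 higher and 998 lower among all 19410 genes. For Cdkn2a the change in effect was -0.7 (95% interval -2.74 to 1.34) and for Cdkn2b -0.68 (-2.04 to 0.67), intervals that leave room for a change of 2-fold or more in either gene. A later effect than on day 3 was therefore not shown by this test for either gene.

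Changes over time without the 3 factors were read from LacZ cells. Between day 10 and day 3 the limma fit called 2 of the 10 genes higher (4.06% of all genes) and none lower (3.85%). At an unadjusted p under 0.05, 3 were higher and 2 lower, beside 2813 higher and 2726 lower among all 19410 genes. Cdkn2a was 13.3-fold higher on day 10 (log2 difference 3.73, SE 0.69, adjusted p = 0.00085) and Cdkn2b 3.59-fold higher (1.84, SE 0.46, adjusted p = 0.0093). The Cdkn2b call was lost without LacZ D10 replicate 1 (adjusted p = 0.077) or without either day 3 array (0.061 and 0.062). Days 3 and 10 lay on different slides.

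Between LacZ D14 and CF D0, which shared a slide but differ in infection as well as in time, 3 of the 10 genes were higher, against 15.5% of all genes, and 2 were lower, against 12.1%. Cdkn2a was 155-fold higher on day 14 (log2 difference 7.28, SE 0.69, adjusted p = 5.2e-08), Cdkn2b 38.6-fold higher (5.27, SE 0.46, adjusted p = 1.6e-08) and Cdkn2d, which encodes p19Ink4d, 2.10-fold higher. Cdkn1c was 5.45-fold lower and Trp53 2.34-fold lower. All 5 calls held under each of 14 alternatives. Macrophage markers moved in the same direction as Cdkn2a over this interval, with summed levels of 7.73 and 8.18 in LacZ D14, against 4.65 and 4.51 in CF D0. At day 14 they were 7.43 and 7.55 in MGT cells and 7.73 and 8.18 in LacZ cells, and their part in the Cdkn2a level was not tested.

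The fibroblasts before infection, CF D0, set against freshly isolated neoCF on 1 slide, had 8 of the 10 genes called, 5 higher (16.3% of all genes) and 3 lower (18.1%). Cdkn2b was 4.93-fold higher in CF D0 (log2 difference 2.30, adjusted p = 0.00028) and Cdkn2a 4.10-fold higher (2.03, adjusted p = 0.017). The levels of Cdkn2a were -2.13 and -2.19 in CF D0, against -4.14 and -4.25 in neoCF, without overlap. The second Cdkn2a probe gave a difference of 1.51 that did not pass the test (limma adjusted p = 0.11). The Cdkn2a call was lost with normexp background correction (adjusted p = 0.069) and without any 1 of the 4 arrays (adjusted p = 0.057 to 0.07). Cdkn1a was 6.33-fold higher (adjusted p = 0.00015), Mdm2 3.52-fold higher (0.0019) and Trp53 2.02-fold higher (0.0022). Cdkn1c was 21.5-fold lower, Cdkn2c 3.08-fold lower and Cdkn1b 2.10-fold lower, the last just short of 2-fold without CF D0 replicate 2 (log2 difference -0.99). Cdkn2d differed by -0.93 (limma adjusted p = 0.0082), short of 2-fold. It was called lower with quantile normalization (-1.38), with normexp (-1.39) and in the authors' log2 values (-1.39). Summed markers of other cell types differed as well, in both directions. Smooth muscle and pericyte markers were higher in CF D0, at 8.87 and 8.97, against 6.76 and 6.99 in neoCF. Endoderm markers were at -0.35 and -0.6 in CF D0, against -4.7 and -5 in neoCF, with 1 of 3 above background. The markers that follow were lower in CF D0 as sums, although the macrophage gene Adgre1 was called higher (log2 difference 1.12, limma adjusted p = 0.013). Endothelial markers were at 3.2 and 3.3 in CF D0, against 5.58 and 5.69 in neoCF, and macrophage markers at 4.65 and 4.51, against 6.69 and 6.16. Neutrophil markers were at 3.13 and 2.64 in CF D0, against 6.43 and 5.86 in neoCF, and erythroid markers at 0.41 and -0.3, against 6.89 and 6.67. Their part in these differences was not tested.

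**Figure D3:**
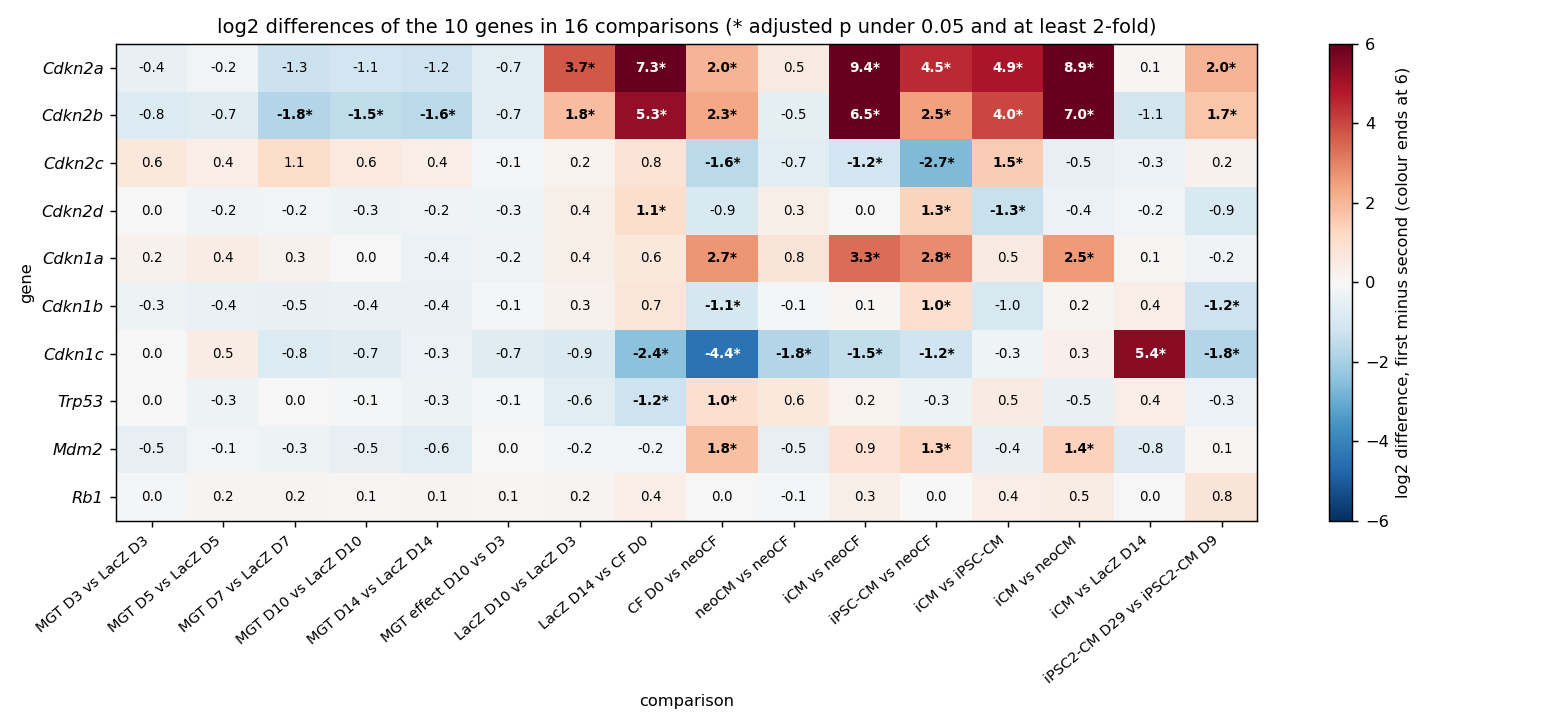
Heat map of the log2 difference (colour and printed number, first group minus second) of the 10 genes (rows) in 16 comparisons (columns); an asterisk marks an adjusted p under 0.05 with at least a 2-fold difference. Cdkn2a and Cdkn2b reach 9.4 and 6.5 in iCM against neoCF, 8.9 and 7.0 in iCM against neoCM and 7.3 and 5.3 in LacZ D14 against CF D0, and the Rb1 row has no asterisk.

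Among the end points, iCM against neoCF sets the reprogrammed cells beside the cell type that they came from. Of the 10 genes, 3 were higher, against 16.9% of all genes, and 2 were lower, against 20.1%. Cdkn2a had levels of 5.35 and 5.02 in iCM, against -4.14 and -4.25 in neoCF, and was 665-fold higher (log2 difference 9.38, SE 0.69, adjusted p = 1.1e-09). Cdkn2b had 3.74 and 3.53 in iCM, against -2.97 and -2.7 in neoCF, and was 88.5-fold higher (6.47, SE 0.46, adjusted p = 6.9e-10). Cdkn1a had 4.48 and 4.62 in iCM, against 1.02 and 1.39 in neoCF, and was 10.2-fold higher (3.35, SE 0.50, adjusted p = 1.2e-05). The groups do not overlap for any of these 3 genes, and the 3 calls held under each of 14 alternatives. Cdkn1c was 2.79-fold lower in iCM. Cdkn2c was 2.23-fold lower with an adjusted p of 0.046, a call that was lost without any 1 of the 4 arrays (adjusted p = 0.099 to 0.15) and with no filter on dim probes (0.054). The iCM arrays lay on another slide and scan day than neoCF, so that slide and group cannot be told apart.

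Against neoCM, their counterpart from the heart, iCM had 4 of the 10 genes higher (18.2% of all genes) and none lower (20.7%). At an unadjusted p under 0.05, 5 were higher and none lower, beside 6156 higher and 6143 lower among all 19410 genes. Cdkn2a had -3.17 and -4.18 in neoCM and was 464-fold higher in iCM (log2 difference 8.86, adjusted p = 2e-09). Cdkn2b had -3.42 and -3.31 in neoCM and was 128-fold higher in iCM (7.00, adjusted p = 1.8e-10). Cdkn1a was 5.86-fold higher (2.55, adjusted p = 2e-04). Mdm2 was 2.57-fold higher (1.36, adjusted p = 0.013), but not called without iCM replicate 2 (0.053) or without neoCM replicate 2 (0.063). Between neoCM and neoCF themselves Cdkn1c alone was called, 3.40-fold lower in neoCM, so that 0 genes were higher, against 15.3% of all genes, and 1 was lower, against 16.3%. Trp53 was 0.65 higher on the log2 scale in neoCM with an unadjusted p of 0.019 (adjusted p = 0.039), short of 2-fold. The neoCM and neoCF arrays lay on different slides and scan days, so that these and the group cannot be told apart.

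Against LacZ cells of day 14, iCM had 1 of the 10 genes higher, Cdkn1c, against 10.1% of all genes, and none lower, against 18.1%. At an unadjusted p under 0.05, 2 were higher and 1, Cdkn2b, was lower, beside 4085 higher and 6253 lower among all 19410 genes. Cdkn2a had 5.35 and 5.02 in iCM and 5.21 and 5.02 in LacZ D14. The arrays overlapped, and the log2 difference was 0.07 with a 95% interval of -1.37 to 1.51, which does not show that the levels were equal. Cdkn2b had 3.74 and 3.53 in iCM, against 4.59 and 4.89 in LacZ D14, a 2.15-fold difference (-1.1, adjusted p = 0.055), and its second probe gave -0.47. It was called lower in iCM without the iPSC2-CM D29 arrays in the fit (adjusted p = 1.4e-06), with slide as a block (0.03) and with only the groups compared (0.025). The iCM cells were 4 weeks from infection, on another slide than LacZ D14, and the labels give no medium for LacZ D14, so that age in culture, slide and factors, and medium if it differed, cannot be told apart here.

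The 2 routes to a cardiomyocyte-like cell were set against each other as iCM against the mean of iPSC1-CM and iPSC2-CM D9. The iCM arrays lay on another slide and scan day than all iPSC-CM arrays, so that these and the group cannot be told apart. Of the 10 genes, 3 were higher in iCM (20.7% of all genes) and 1 was lower (26.1%). Cdkn2a had 5.35 and 5.02 in iCM, against 1.01 and 0.69 for the first iPSC line and -0.22 and -0.43 for the second on day 9. It was 30.3-fold higher in iCM (log2 difference 4.92, SE 0.60, adjusted p = 4.9e-07). Cdkn2b had 3.74 and 3.53 in iCM, against -0.54 and -0.77 for the first line and 0.04 and -0.21 for the second, and was 16-fold higher (4.0, SE 0.4, adjusted p = 3.2e-08). Cdkn2c was 2.83-fold higher (1.5, adjusted p = 0.0034) and Cdkn2d 2.54-fold lower (-1.35, adjusted p = 5.9e-05). These 4 calls held under each of 16 alternatives. The median of all genes was itself shifted by -0.22 in this comparison, and with quantile normalization by 0.03. Fibroblast markers were at 9.31 and 9 in iCM, against 8.76 and 8.62 for the first line and 4.88 and 4.59 for the second. Macrophage markers were at 6.41 and 6.38 in iCM, against 0.58 and 0.56 for the first line and 0.96 and 1.42 for the second. Proliferation markers were at 1.56 and 1.67 in iCM, against 6.39 and 6.19 for the first line and 5.68 and 5.93 for the second. The part of these cells in the differences was not tested.

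The iPSC-derived cells also differed from neoCF, with 6 of the 10 genes higher, against 18.4% of all genes, and 2 lower, against 18.7%. Cdkn2a was 22-fold higher in the iPSC-derived cells (log2 difference 4.46, adjusted p = 2.5e-06), Cdkn1a 7.03-fold higher (2.81, adjusted p = 1.3e-05) and Cdkn2b 5.53-fold higher (2.47, adjusted p = 2.3e-05). Cdkn2d, Mdm2 and Cdkn1b were 2.50-, 2.45- and 2.03-fold higher. Cdkn2c was 6.30-fold lower and Cdkn1c 2.29-fold lower. The median of all genes was shifted by 0.2 here, and with quantile normalization by 0.01. Under that scaling Cdkn2d, Mdm2 and Cdkn1b fell short of 2-fold (log2 differences 0.97, 0.78 and 0.72), and Mdm2 was also not called without neoCF replicate 1 (adjusted p = 0.064). Cdkn1b also fell short of 2-fold without neoCF replicate 2 (0.98), iPSC1-CM replicate 2 (0.99) or iPSC2-CM D9 replicate 1 (0.99). The iPSC-CM and neoCF arrays lay on different slides, so that slide and group cannot be told apart. The comparisons of iCM, neoCM, iPSC-CM and CF D0 with neoCF share the same 2 neoCF arrays.

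In the cells of the second iPSC line at day 29 the INK4 genes depended on the array. Cdkn2a had 3.73 in replicate 1 and -0.29 in replicate 2 of day 29, against -0.22 and -0.43 on day 9. Cdkn2b had 2.91 and 0.23 on day 29, against 0.04 and -0.21 on day 9. Replicate 1 was thus far above the day 9 arrays for both genes, while replicate 2 lay between them for Cdkn2a and slightly above them for Cdkn2b. Cdkn1a had 2.76 in replicate 1 and 5.7 in replicate 2, against 4.2 and 4.64 on day 9, and Mdm2 had 4.66 and 7.31, against 5.79 and 5.95. For these 2 genes the day 9 arrays fell between the 2 day 29 arrays. Cdkn2c had -0.85 and -3.66 on day 29, against -2.41 and -2.58 on day 9. The array with high Cdkn2a and Cdkn2b was the one with the high proliferation, fibroblast and endoderm markers, and the array with high Cdkn1a and Mdm2 was the one with Mki67, a marker of cycling cells, at -2.43, against 4 in the other.

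**Figure D4:**
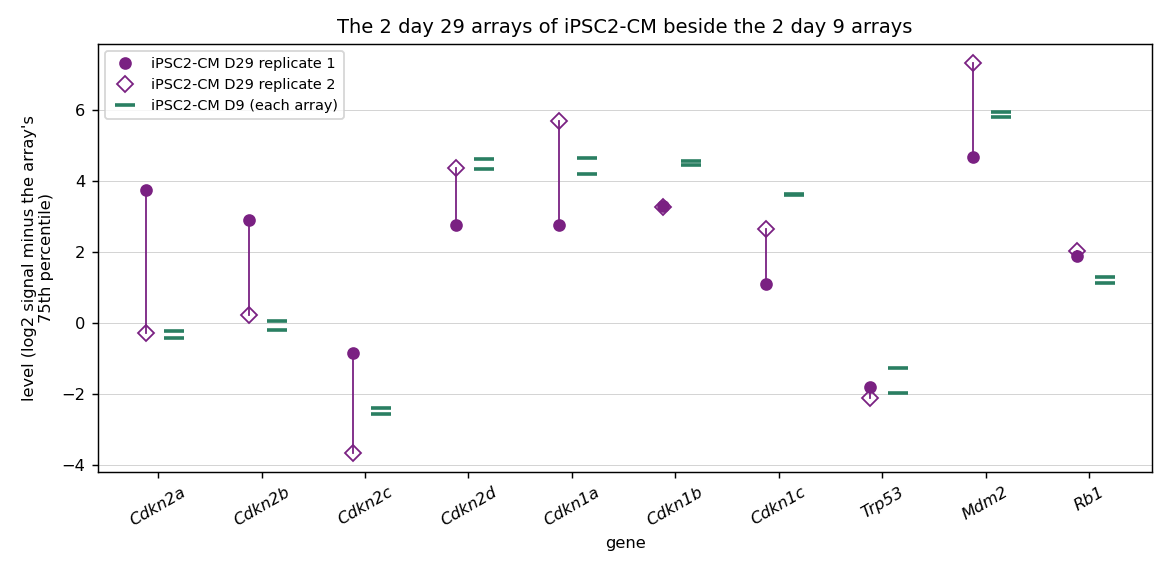
Level (y axis, log2 intensity minus the 75th percentile of the array) of the 10 genes (x axis) in iPSC2-CM D29 replicate 1 (filled circle) and replicate 2 (open diamond), joined by a line, beside both iPSC2-CM D9 arrays (bars). Replicate 1 is higher for Cdkn2a, Cdkn2b and Cdkn2c, and replicate 2 is higher for Cdkn1a, Mdm2, Cdkn2d and Cdkn1c.

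In the fit over all groups, 2 of the 10 genes, Cdkn2a and Cdkn2b, were higher on day 29 than on day 9 (14.7% of all genes), and 2, Cdkn1b and Cdkn1c, were lower (9.58%). With the 4 arrays of these groups alone no gene of the whole array was called, and the adjusted p of Cdkn2a was 0.61. The Cdkn2a difference was 2.04 with both day 29 arrays, 4.05 without replicate 2 and 0.03 without replicate 1. For Cdkn1a the difference was -0.19 with both arrays, 1.27 without replicate 1 and -1.66 without replicate 2, and for Mdm2 it was 0.11, 1.44 and -1.21. Cdkn1b was the exception among the called genes, with 3.28 and 3.26 on day 29, against 4.56 and 4.44 on day 9, a log2 difference of -1.23 (adjusted p = 4.2e-08 in the shared fit and 0.34 in the 4 arrays alone).

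Cdkn2c, which encodes p18Ink4c, followed another course than its relatives. Its group mean was highest in neoCF, with arrays at 1.51 and 1.41 that overlapped those of MGT D5 (1.36 and 1.52), and it lay at 0.38 and 0.22 in iCM and at -2.41 and -2.58 in iPSC2-CM D9. In the time course it was 1.3 and 1.24 in MGT cells on day 7, against 0.25 and 0.09 in LacZ cells. This 2.14-fold difference did not pass the test (log2 difference 1.10, adjusted p = 0.16), but was called without the iPSC2-CM D29 arrays in the fit (8e-06) and with the 4 arrays of that day alone (0.0062). On the other days it was 0.64, 0.41, 0.59 and 0.38, on days 3, 5, 10 and 14, not called. Cdkn2d stayed between 2.24 and 3.57 in all groups other than the iPSC-derived ones, and reached 4.58 and 4.5 in iPSC1-CM. In iPSC2-CM D9 its arrays were at 4.63 and 4.33.

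Cdkn1a, which encodes p21, stood at 1.02 and 1.39 in neoCF and 2.03 and 1.96 in neoCM and at 2.76 or more on every other array. Within the time course it lay between 3.49 and 4.63 on all arrays. The difference between MGT and LacZ cells was 0.25, 0.43, 0.27, 0.02 and -0.35 on days 3, 5, 7, 10 and 14. The limma adjusted p-values were 0.67 to 0.99, with an SE of 0.50 that carries the gap of 2.94 between the iPSC2-CM D29 arrays. Both MGT arrays lay above both LacZ arrays on days 3, 5 and 7 and below them on day 14. The test thus does not show that the arms were alike. The second probe of Cdkn1a, which matches 1 of its 2 transcripts, gave a larger difference for CF D0 against neoCF (log2 3.91, against 2.66 for the first probe). For MGT against LacZ cells it gave 0.29, 0.83, 0.21, 0.1 and 0.15 on days 3, 5, 7, 10 and 14, none past the test.

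Cdkn1b, which encodes p27, was lowest in CF D0 (1.91 and 1.74) and highest in iPSC2-CM D9 (4.56 and 4.44). In the time course MGT cells were lower than LacZ cells on every day, with no overlap between the arrays of a day. Its log2 differences were -0.29, -0.41, -0.47, -0.39 and -0.38 on days 3, 5, 7, 10 and 14. On days 5, 7, 10 and 14 the adjusted p was 0.014, 0.0056, 0.02 and 0.015, so that the direction passed the test while the size stayed under 2-fold. A second, dimmer Cdkn1b probe gave 0.18, -0.31, -0.16, -0.35 and 0.28 on the 5 days, none past the test, and thus opposed the first probe on days 3 and 14.

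Cdkn1c, which encodes p57 and is expressed from the maternal copy only, had the third widest range. It was 5.27 and 5.21 in neoCF, 3.57 and 3.37 in neoCM and 3.79 and 3.73 in iCM. The iPSC-derived cells were at 4.52 and 4.41 in iPSC1-CM, 3.6 and 3.62 in iPSC2-CM D9 and 1.08 and 2.64 in iPSC2-CM D29. In CF D0 it was 0.77 and 0.86, and by day 14 it had reached -2.01 and -1.93 in MGT cells and -1.22 and -2.05 in LacZ cells. The 2 arms overlapped on day 14, and none of the 5 daily differences between MGT and LacZ cells was called. In iCM against LacZ D14 Cdkn1c was 42.0-fold higher (log2 difference 5.39, SE 0.31, adjusted p = 1.1e-10), a call held under each of 14 alternatives. The level of iCM was thus nearer to that of neoCM, from which it differed by 0.29 (95% interval -0.36 to 0.93), than to that of the cultured fibroblasts.

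Trp53 had the second narrowest range of the 10 genes. Its highest levels were -0.26 and -0.21 in CF D0, against -1.2 and -1.3 in neoCF, a 2.02-fold difference whose size fell just under 2-fold without CF D0 replicate 2 or neoCF replicate 2 (log2 0.99 and 0.97). In LacZ cells of day 14 it was -1.48 and -1.45, and in iCM -1.4 and -0.71. No daily difference between MGT and LacZ cells was called, with adjusted p-values of 0.45 to 1.

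Mdm2, the ligase that marks p53 for destruction and a target of p53, was lowest in neoCM (3.46 and 3.32) and neoCF (3.77 and 4.02). It stood at 5.66 and 5.76 in CF D0 and between 4.89 and 5.74 on every array of the later days. The log2 difference between MGT and LacZ cells was -0.49, -0.15, -0.29, -0.48 and -0.62 on days 3, 5, 7, 10 and 14. None of these passed the test, whose SE of 0.45 carries the gap of 2.65 between the iPSC2-CM D29 arrays. On every day except day 5 both MGT arrays lay below both LacZ arrays, so the arms were not shown to be alike. Over the 17 group means Mdm2 ran with Cdkn1a (r = 0.75).

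Rb1, the pocket protein on which the INK4 pathway ends, stayed between 1.01 and 2.03 on all 34 arrays. Its replicates were close, and several small differences had an adjusted p under 0.05 without reaching 2-fold. It was 0.34 higher on the log2 scale in iCM than in neoCF (adjusted p = 0.0026), 0.46 higher than in neoCM (0.00016) and 0.40 higher in LacZ D14 than in CF D0 (8e-04). The largest difference was 0.76 between iPSC2-CM D29 and D9, with 1.89 and 2.03 on day 29, against 1.28 and 1.13 on day 9. Here the 2 day 29 arrays lay close together.

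Across the 17 group means the closest pair among the 10 genes was Cdkn2a with Cdkn2b (Pearson r = 0.89), followed by Cdkn1b with Cdkn2d (0.88) and Cdkn1a with Cdkn2a (0.77). Cdkn1c with Cdkn2b (-0.73) and Cdkn1b with Cdkn2c (-0.72) ran most against each other. These values describe 17 groups that share culture time, slides and cell source. Among 17413 other genes well above background on at least 10 arrays, the patterns most like Cdkn2a were Rab18 (r = 0.963), Pqlc3 (0.938) and Washc3 (0.93). Those most like Cdkn2b were Ube2w (0.975), Hoxc13 (0.961) and Tmem37 (0.956). For Cdkn1a they were Rhod (0.964), Prpf6 and Tm2d3, for Cdkn1c Fzd4 (0.949), Gli2 and Depp1, and for Trp53 Trip6 (0.854), Pabpn1 and Mta2.

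The genes that these regulators act on were followed by lists. The 22 S-phase genes under E2F control, such as the Mcm helicase subunits, had medians of -0.4 and -0.28 in iCM, against 3.1 and 2.99 in neoCF, 2.71 and 2.67 in neoCM and 2.12 and 2.19 in LacZ D14. In iCM 19 of the 22 were lower than in neoCF and none was higher, beside 20.1% of all genes lower and 16.9% higher. The median log2 difference was -2.23, against 0 over all genes. The 2 largest falls were those of Mki67 (-4.56, adjusted p = 0.0012) and Cdc6, a replication licensing factor (-4.38, adjusted p = 3.2e-08). Against neoCM 17 of the 22 were lower (20.7% of all genes), against iPSC-CM 17 (26.1%) and against LacZ D14 16 (18.1%). None of the S-phase genes was higher in any of these comparisons. The proliferation markers moved with them, at 1.56 and 1.67 in iCM, against 4.8 and 4.88 in LacZ D14. Thus LacZ D14 and iCM had Cdkn2a arrays that overlapped and S-phase medians that did not, with values near 2 in one and below 0 in the other.

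**Figure D5:**
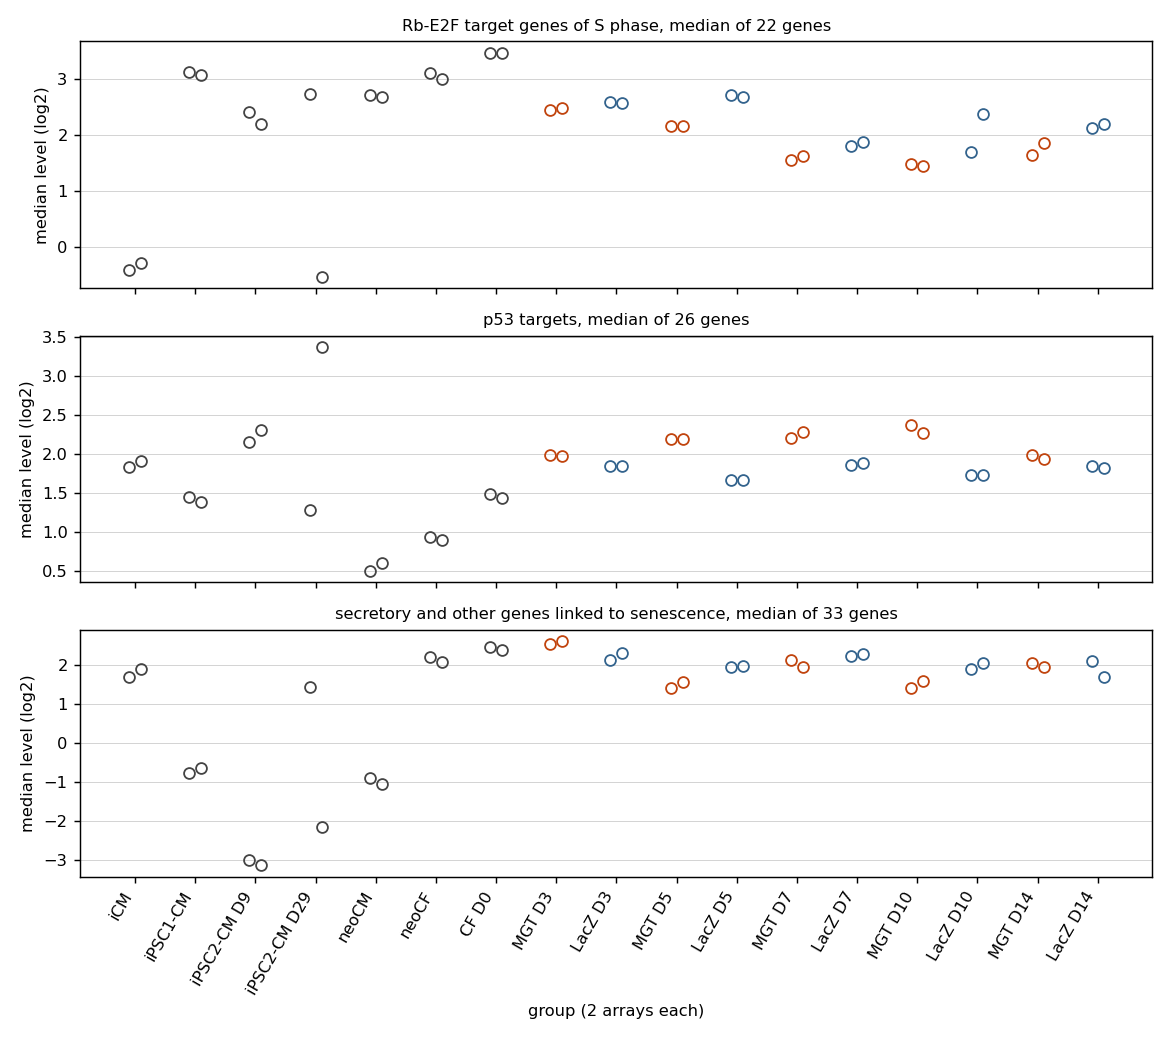
Median level (y axis, log2 scale) over the genes of 3 lists in each array of the 17 groups (x axis), with MGT cells in orange, LacZ cells in blue and the other groups in grey. The S-phase list is lowest in both iCM arrays and in iPSC2-CM D29 replicate 2, where the p53 target list is highest (3.37).

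Between MGT and LacZ cells no S-phase gene was called in the limma fit on any of the 5 days. Over all genes, 3.2% to 5.85% were called higher and 1.87% to 7.33% lower. At an unadjusted p under 0.05 there were 1 to 3 of 22 on each day. At that limit all 19410 genes gave 1579 higher and 1926 lower on day 3, and up to 2407 and 4250 on day 14. The SE of Mki67, 1.06, carries the gap between the iPSC2-CM D29 arrays (4 and -2.43). On day 5 Mki67 was 3.45 and 3.46 in MGT cells, against 3.99 and 4.01 in LacZ cells (adjusted p = 0.82). The absence of calls thus does not show that the arms were alike. From CF D0 to LacZ D14 the list was lower in 16 of the 22 (12.1% of all genes) and higher in none (15.5%). The median was -1.52, against 0.09 over all genes. In CF D0 8 of the 22 were higher than in neoCF (16.3% of all genes) and none lower (18.1%).

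Of 26 other p53 targets, 14 were higher and 1 was lower in iCM than in neoCF, beside 16.9% of all genes higher and 20.1% lower. The median log2 difference was 1.06, against 0 over all genes. Ccng1, a cyclin that p53 induces, was 4.26 higher (adjusted p = 1.7e-09) and Perp, a membrane protein of the death response, 3.23 higher (5.3e-07). Plk2 was the gene that was lower (-2.12, adjusted p = 0.0093). Against neoCM, iCM had 14 higher (18.2% of all genes) and 1 lower (20.7%). For iPSC-CM against neoCF the counts were 14 higher (18.4%) and 2 lower (18.7%). In CF D0 against neoCF 10 were higher (16.3% of all genes) and 5 lower (18.1%). Aen, a nuclease, was highest (2.92, adjusted p = 5.3e-08), and Btg2 and Sesn1 were lowest (-2.57 and -2.56). Between MGT and LacZ cells only Sesn1, on day 3, was called (1.62 higher in MGT cells, adjusted p = 0.00041). That is 1 of 26 genes, near the 3.2% of all genes called higher on that day.

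Of 33 secreted and other genes linked to senescence, 20 were higher in CF D0 than in neoCF (16.3% of all genes) and 2 lower (18.1%). The median log2 difference was 2.21, against 0.05 over all genes. Mmp3, a secreted protease, led (8.71, adjusted p = 0.00015), followed by Ereg, a growth factor of the EGF family (6.68, adjusted p = 3.2e-12). Igfbp5, which binds insulin-like growth factors, fell by 5.9. Between MGT and LacZ cells Igfbp5 was 4.31 higher on day 3 and 2.12 higher on day 10. Of this list, 2 were higher and 7 lower in MGT than in LacZ cells on day 5 (median -0.48, against -0.08 over all genes), beside 4.96% of all genes higher and 3.3% lower. On day 14, 4 were higher and 3 lower (median -0.33, against -0.12), beside 5.85% higher and 7.33% lower. On that day Serpine2, a protease inhibitor, was 2.28 higher and Igfbp3 fell by 4.45. In iCM against iPSC-CM 23 were higher (20.7% of all genes) and 3 lower (26.1%), with a median of 2.17, against -0.22. The 2 lowest were Lmnb1 (-4.07) and Hmgb2 (-3.43), nuclear proteins whose loss is used as a sign of senescence and which cycling cells also express. Macrophage markers were also higher in iCM than in these iPSC-derived groups, and their part in this count was not tested. Between iCM and LacZ D14, by contrast, 4 were higher (10.1% of all genes) and 13 lower (18.1%), with a median of -1.08, against -0.16. Il6 was at -4.29 (adjusted p = 2e-05). In neoCM against neoCF, on different slides, 19 of the 33 were lower (16.3% of all genes) and 2 higher (15.3%). In LacZ D14 against CF D0, 9 were higher (15.5% of all genes) and 13 lower (12.1%), with a median of -0.88, against 0.09. In iCM against neoCF, 9 were higher (16.9%) and 12 lower (20.1%), with a median of -0.15, against 0. Cdkn2a was 155-fold higher in the first of these last 2 comparisons and 665-fold higher in the second.

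Of 19 regulators of the Cdkn2a locus, 7 were lower and 1 was higher in iCM than in neoCF (median log2 difference -0.44, against 0 over all genes), beside 20.1% of all genes lower and 16.9% higher. Ezh2, the histone methyltransferase known to silence the locus, differed by -2.57 on the log2 scale in iCM against neoCF (adjusted p = 7.6e-07). In iCM against iPSC-CM it differed by -2.99 (6.3e-09). Proliferation markers were also lower in iCM than in these groups, and their part in the Ezh2 differences was not tested. The part of Ezh2 in the Cdkn2a level was not tested either. Id1, an inhibitor of basic helix-loop-helix factors, was lower in MGT than in LacZ cells on all 5 days, with a log2 difference of -1.01 on day 3 and of -1.96 to -2.22 on the later days (adjusted p = 0.00095 or less). Hipk2, a kinase that activates p53 and 1 of 16 p53 regulators and relatives, was higher in MGT than in LacZ cells on day 5 (1.95), day 7 (1.72), day 10 (1.46) and day 14 (1.57), each with an adjusted p of 1.5e-07 or less.

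Of 20 G1 cyclins, kinases and pocket proteins, 3 were higher and 7 lower in iCM than in neoCF (median log2 difference -0.66, against 0 over all genes), beside 16.9% of all genes higher and 20.1% lower. Ccnd2, a D-type cyclin, was 1.89 higher and Rbl2, the pocket protein p130 of resting cells, 1.78 higher, while E2f7, an E2F family member, fell by 4.61. Rbl2 was also 2.45 higher in LacZ D14 than in CF D0 (adjusted p = 5.6e-10). No gene of this list was called by limma between MGT and LacZ cells on any day, again with the iPSC2-CM D29 arrays in the fit. Over all genes, 3.2% to 5.85% were called higher and 1.87% to 7.33% lower on these days. At an unadjusted p under 0.05 there were 2 to 7 of the 20 on each day. Among all 19410 genes there were 1579 higher and 1926 lower on day 3, and up to 2407 and 4250 on day 14. Of 10 genes that control the stability of inhibitor proteins, 2 were lower and none was higher in iCM than in neoCF, a share of lower genes near the 20.1% of all genes. They were Dtl, a substrate receptor of the Cul4 ligase that targets p21 (-3.78, adjusted p = 7e-04), and Pcna (-1.15), its partner on chromatin.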

How the data were processed

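RNA was extracted with TRIzol and RNeasy columns, labelled with Cy3 and hybridised to Agilent 8x60K mouse arrays, per the labels' protocols. Per the file headers, the deposited intensity of each spot is the processed signal of Feature Extraction, version 10.7.3.1. The submitters' processing notes name limma, with no version. The authors' table of log2 values was used as an alternative, and its columns correlated with the scanner values at r = 0.982 or more. Control and outlier spots were left out, spots of a probe were averaged, and log2 intensity was centred on each array's 75th percentile. Of 55681 probes, 43371 that were well above background on both arrays of a group were kept, and each of 19410 genes was represented by its brightest probe. Under R 4.3.3 (with the data.table package, version 1.17.8), limma 3.58.1 fitted all 17 groups, with two-sided tests, Benjamini-Hochberg adjustment and a 2-fold limit. The fit had 17 residual and 1.99 prior degrees of freedom. Figures were drawn with matplotlib 3.10.9, and files parsed with pandas 2.3.3 and numpy 2.4.6, under Python 3.11.15. On simulated data for iCM against neoCF over 19410 genes, the fit recovered 64% of changes of 1.5 and 90% of changes of 3 on the log2 scale, with 0 false calls. Same-numbered arrays did not deviate together (136 pairs of groups, correlation -0.13 to 0.17, 8 over 0.1), so the numbers were not taken as pairs. The number of arrays limits the precision. The genes and lists were chosen with earlier results of these data known. Of each list, at most the 2 highest and the 2 lowest called genes were named, and of other genes the 3 most alike in pattern. Promoter sequences are from RefSeq, GRCm38.p6. Alternatives were quantile normalization, normexp with an offset of 50, the authors' log2 values, no filter on dim probes, the mean of a gene's probes, slide or replicate number as a block, no fold limit, a fit without the iPSC2-CM D29 arrays, a fit with the compared groups alone, and leaving out each array.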

Additional observations from a re-analysis of the deposited data

How the results depend on the processing

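Of 45 calls on the 10 genes, 29 held under every alternative run for them, 16 were lost under at least 1 and 0 changed direction. The replicate block changed no count of called genes (8 for CF D0 against neoCF with the replicate block and without). Of MGT against LacZ, day 7 had 1 called gene, 3 without the iPSC2-CM D29 arrays in the fit, 3 with only the groups compared, 2 with no fold limit and 0 to 1 leaving out 1 array. Day 10 had 1, 0 with quantile normalization or the authors' log2 values, 2 without the D29 arrays or with no fold limit, and 0 to 0 leaving out 1 array. Day 14 had 1, 0 under those 2 scalings, 2 without the D29 arrays, with no fold limit or with only the groups compared, and 0 to 1 leaving out 1 array. Day 5 had 0, and 1 with no fold limit. LacZ D10 against D3 had 2, and 1 to 2 leaving out 1 array. CF D0 against neoCF had 8, and 5 to 7 leaving out 1 array. For CF D0 against neoCF, Cdkn2d was called as well with quantile normalization, normexp, the authors' values or no fold limit. With no fold limit neoCM against neoCF had 2 (1 with it), and iCM against iPSC-CM 7 (4 with it). iPSC-CM against neoCF had 8, and 5 with quantile normalization, normexp or the authors' values. iCM against LacZ D14 had 1, and 2 without the D29 arrays, with slide as a block, with no fold limit or with only the groups compared. iPSC2-CM D29 against D9 had 4, 0 with only the groups compared and 3 to 8 leaving out 1 array. There the direction depended on the array left out for Cdkn1a (1.27 without D29 replicate 1 and -1.66 without replicate 2), Cdkn2c (-1.16 and 1.65) and Mdm2 (1.44 and -1.21). Fewer arrays give fewer residual degrees of freedom when 1 is left out, and the cause of the other changes was not tested. Over all genes, the split of higher and lower calls moved with the scaling. MGT D14 against LacZ D14 had 1136 higher and 1422 lower, and 1341 and 758 with quantile normalization. iCM against iPSC-CM had 4021 and 5066, and 4555 and 3527. iCM against LacZ D14 had 1956 and 3522, and 2407 and 2058. LacZ D10 against D3 had 788 and 747, and 542 and 850.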
